A study of Mus musculus with 2 samples.

Results

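The killing programme of T cells and natural killer (NK) cells was followed through 2 single-cell libraries of mouse colorectal tumours by the 7 genes Gzma, Gzmb, Prf1, Nkg7, Ifng, Ccl5 and Klrd1, of 32285 listed. Every row of both count matrices with one of these symbols was used. The genes were picked with their levels and their differences between these libraries known, so the values below are a description and no test was made on them. One library was labelled WT and the other STK25 wKO, which the study describes as a global knockout of Stk25, and the mice of both genotypes had been given AOM and DSS, a carcinogen and a colitis-inducing agent. The tumours of each genotype were pooled and dissociated with trypsin before loading, so there was 1 library per genotype and no replicate, and the number, age and sex of the mice are not given in the sources used here. The series' design text names a cell sort on mCherry without saying which fraction was loaded. Below, paired values are for the WT library first and for the STK25 knockout library second, each named as labelled. Intervals are 95% and cover counting error only, and log2 ratios are the knockout-labelled level over the WT-labelled level.

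Cytotoxic lymphocytes kill by releasing granules onto a target cell. Perforin (Prf1) opens the target's membrane and granzymes enter and cleave proteins inside, granzyme B (Gzmb) after aspartate and granzyme A (Gzma) as a tryptase. Nkg7 is a granule membrane protein needed for efficient release, and Klrd1 (CD94) is a surface lectin that pairs with NKG2 receptors and reads the non-classical MHC molecule Qa-1. Such cells also secrete interferon gamma (Ifng), which raises antigen presentation and activates macrophages, and the chemokine Ccl5, which draws T cells and myeloid cells. In the gut they include CD8 T cells, gamma delta T cells and innate cells such as NK cells, for which Cd8a, Trdc (the delta chain constant region) and Ncr1 (NKp46) served here as anchor genes.

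The members lie apart in the genome, at chr13:113093825-113100981 on the minus strand for Gzma (ENSMUSG00000023132), chr14:56258838-56262260 on the minus strand for Gzmb (ENSMUSG00000015437) and chr10:61297833-61304680 on the plus strand for Prf1 (ENSMUSG00000037202), in build GRCm38. Nkg7 (ENSMUSG00000004612) is at chr7:43437073-43438249, Ifng (ENSMUSG00000055170) at chr10:118441046-118445892 and Klrd1 (ENSMUSG00000030165) at chr6:129591782-129598775, all on the plus strand, and Ccl5 (ENSMUSG00000035042) is at chr11:83525778-83530518 on the minus strand. RefSeq promoter sequence of GRCm38.p6 was at hand for 5 of the 7. The 250 bases before the start are shown for the 3 granule genes whose levels went different ways below, Gzma and Gzmb being higher and Prf1 not in T or NK cells when the STK25 knockout library was set against WT. Capitals mark matches to TGTGGT (the core bound by Runx factors) or to TGANTCA (the AP-1 site), on either strand.
Gzma promoter: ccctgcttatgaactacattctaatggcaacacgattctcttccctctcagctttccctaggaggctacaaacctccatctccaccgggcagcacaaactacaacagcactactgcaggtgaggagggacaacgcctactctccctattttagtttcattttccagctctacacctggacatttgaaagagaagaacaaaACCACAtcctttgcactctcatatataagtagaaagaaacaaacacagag
Gzmb promoter: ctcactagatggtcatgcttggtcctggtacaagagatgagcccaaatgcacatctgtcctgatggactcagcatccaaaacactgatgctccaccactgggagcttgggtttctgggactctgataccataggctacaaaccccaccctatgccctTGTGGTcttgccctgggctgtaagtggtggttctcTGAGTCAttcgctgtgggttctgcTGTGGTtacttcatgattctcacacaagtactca
Prf1 promoter: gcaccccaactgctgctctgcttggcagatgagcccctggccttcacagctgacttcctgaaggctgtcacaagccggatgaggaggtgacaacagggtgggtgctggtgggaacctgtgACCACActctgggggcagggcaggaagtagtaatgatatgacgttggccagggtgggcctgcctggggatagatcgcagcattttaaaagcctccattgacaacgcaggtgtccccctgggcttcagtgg
These windows are chr13:113100982-113101231 (minus strand), chr14:56262335-56262584 (minus strand) and chr10:61297586-61297835 (plus strand). The Runx core began 50 bases before the Gzma start, 93 and 34 bases before the Gzmb start and 130 bases before the Prf1 start, and the AP-1 site 58 bases before the Gzmb start. Nkg7 held the Runx core at 83 bases and GGTGTGA, the T-box core, at 13 bases, and Ifng held none of the 3 motifs in its window. Of 32851 promoters, 14.05% held the Runx core, 6.75% the AP-1 site and 3.33% the T-box core. A match is a stretch of letters and not a measured binding site.

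Of 12542 and 14168 cells, 12270 and 13883 were kept, with medians of 1383 and 2091 unique molecular identifiers (UMIs) per cell. Because the second library was deeper, shares of cells are also given after thinning each cell to 1000 UMIs, which leaves 8261 and 11215 cells. The libraries shared 230 cell barcodes. The targeted gene does not check the labels, since Stk25 was counted at 118 and 127 CPM, UMIs per 1000000 (log2 ratio 0.11, interval 0.05 to 0.16), and which part of the gene was deleted is not given. A T or NK class was built from 2 clusters of cells, with the members left out of the clustering genes, and its named markers set it apart. Cd3e, the T cell receptor's CD3 epsilon chain, was found in 19.5% and 35.8% of its cells against 1.995% and 1.00% of cells outside it, and Skap1, a T cell adaptor, in 70.8% and 58.5%. The epithelial gene Epcam also had a UMI in 53.0% and 69.2% of T or NK cells. Whether these UMIs came from free RNA, doublets or misplaced cells, and their part in the results, was not tested.

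At least 1 member was detected in 1606 and 1585 cells of the whole libraries, 13.1% and 11.4% of cells (10.2% and 7.25% after thinning). Gzma and Gzmb went the opposite way to the others. Gzma had 87 and 674 UMIs in 49 and 157 cells, or 2.27 and 10.2 CPM (log2 ratio 2.17, interval 1.85 to 2.51). Gzmb was at 6.79 and 9.79 CPM, with a log2 ratio of 0.53 (0.32 to 0.74) and 94 and 253 positive cells. The remaining 5 were lower. Prf1 was the least counted, with 72 and 37 UMIs, and stood at 1.88 and 0.562 CPM (log2 ratio -1.74, interval -2.36 to -1.15). Nkg7 was at 19.7 and 11.5 CPM (log2 ratio -0.78, interval -0.93 to -0.63), and Klrd1 at 13.6 and 8.19 CPM (log2 ratio -0.73, interval -0.90 to -0.55). For the secreted members the differences were smaller. Ccl5 was at 90.1 and 64.2 CPM (log2 ratio -0.49, interval -0.56 to -0.42), and Ifng at 5.04 and 3.83 CPM (log2 ratio -0.40, interval -0.67 to -0.12). Averaging over cells instead of summing their UMIs turned the direction of Ifng (0.16) and Ccl5 (0.02).

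Among genes with at least 20 UMIs, 1.62% were past a log2 ratio of 1 upwards and 2.85% past -1 downwards over all cells, with 1 CPM added to both libraries. On that scale 1 of the 7 members was past 1 (Gzma) and 0 past -1, and the members' median was -0.48 against -0.11 for all 18816 genes. In such mixed tissue, fewer cells of a type and less RNA per cell cannot be told apart from a summed level alone. The T or NK class held 3900 and 1426 cells. Of its anchor genes, Cd8a over all cells was at 13.3 and 2.89 CPM (log2 ratio -2.21, interval -2.45 to -1.96). Trdc was at 3.06 and 3.74 CPM (log2 ratio 0.29, interval -0.03 to 0.62), and Ncr1 at 0.679 and 0.623 CPM (log2 ratio -0.12, interval -0.87 to 0.64). Intervals for Trdc and Ncr1 spanned 0, while that of Cd8a did not.

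**Figure D1:**
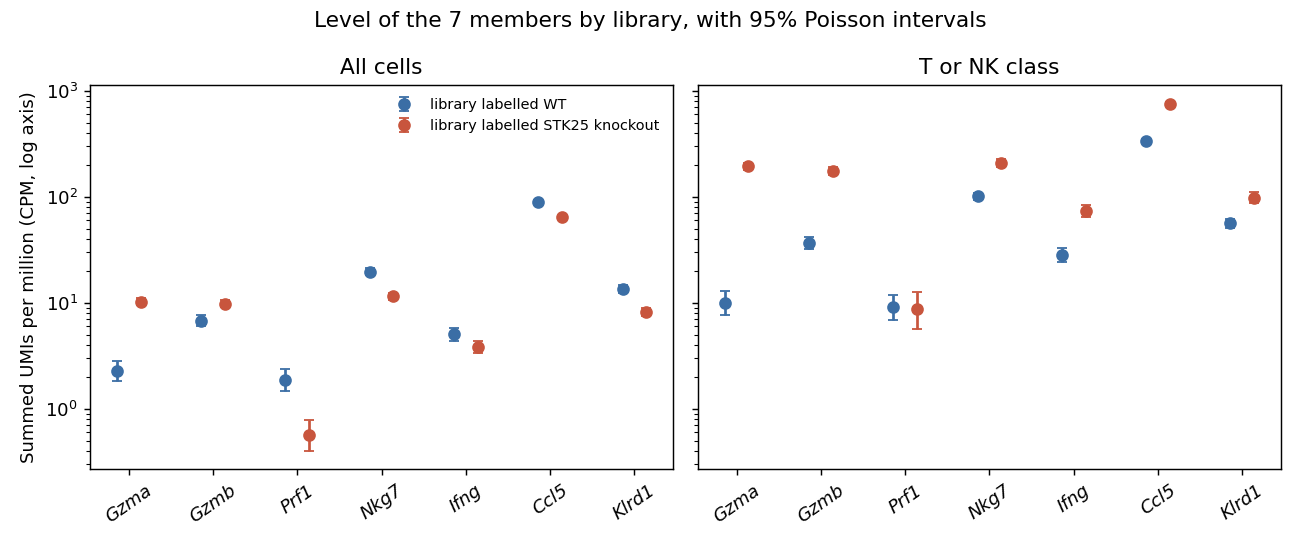
Level of each member in CPM (log axis) by library, over all cells and within the T or NK class, with Poisson intervals as error bars. Within the class Gzma stands at 10.05 and 193.5 CPM and Prf1 at 9.11 and 8.65 CPM, whose intervals overlap.

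Inside the T or NK class the library labelled STK25 knockout had the higher level of 6 of the 7 members, all but Prf1. Gzma had 64 UMIs in 26 cells and 559 UMIs in 58 cells, or 10.05 (7.74 to 12.8) and 193.5 (178 to 210) CPM (log2 ratio 4.27, interval 3.89 to 4.66). It was found in 0.667% and 4.07% of the cells. Gzmb was at 36.9 and 175.5 CPM (log2 ratio 2.25, interval 2.02 to 2.48), in 1.77% and 11.5% of the cells. Both granzymes thus separated the libraries in level and in share of cells, and after thinning the shares were 0.569% and 3.49% for Gzma and 1.44% and 7.94% for Gzmb. Perforin did not follow them. Prf1 was at 9.11 and 8.65 CPM (log2 ratio -0.07, interval -0.81 to 0.63), in 48 and 20 cells. That interval holds differences of over 1.5 times either way, so the depth does not show that Prf1 was alike in the 2 libraries.

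Nkg7, the granule membrane protein, was at 101.5 and 208 CPM in the class, a log2 ratio of 1.04 (0.88 to 1.20), in 8.49% and 15.4% of cells. For Ifng the values were 28.3 and 73.7 CPM (log2 ratio 1.38, interval 1.09 to 1.68), in 1.97% and 6.59% of cells. The chemokine Ccl5 stood at 334 and 747 CPM (log2 ratio 1.16, interval 1.07 to 1.25), in 11.2% and 18.02% of cells. Klrd1 showed the smallest gap of those that were higher, at 56.2 and 98.3 CPM (log2 ratio 0.81, interval 0.58 to 1.03), in 6.23% and 10.4% of cells. After thinning to 1000 UMIs the Klrd1 shares were 4.72% and 5.80%. A cell with at least 1 of the 7 made up 22.7% (21.4 to 24.1) and 38.3% (35.8 to 40.9) of the class, or 19.9% and 30.3% after thinning. At the same cut on genes with 20 UMIs, 5 of 7 members were past 1 and 0 past -1, against 3.56% and 5.04% of 12865 genes. Their median was 1.16 and that of all genes 0.01. Of the anchors, Trdc and Ncr1 were also higher within the class, with log2 ratios of 2.04 (1.68 to 2.40) and 1.57 (0.68 to 2.48), while the interval of Cd8a spanned 0 (-0.21, -0.49 to 0.06), and their part in the members' differences was not tested.

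The class was not made of the same cells in both libraries. A cluster led by Themis, Prkcq, Skap1 and Lef1, the last a factor of naive T cells, held 2677 and 84 cells, and a cluster led by Il17a, Ctla4, Tnfrsf9 and Icos, genes of activated T cells, held 1223 and 1342. Without the first cluster the median depths were close (1759 and 1771 UMIs) and the log2 ratios were 3.17 for Gzma, 0.98 (0.75 to 1.21) for Gzmb, 0.97 (0.76 to 1.19) for Nkg7 and 0.47 (0.15 to 0.79) for Ifng. Ccl5 was then at 298 and 734 CPM (1.30), Klrd1 at 57.0 and 99.9 CPM (0.81) and Prf1 at 5.66 and 9.05 CPM (log2 ratio 0.68, interval -0.32 to 1.73). In this setting 2 of the 7 members were past 1, against 2.84% of genes, and 0 past -1, against 2.4%. Cells chosen by a UMI of a T or NK marker gene, with no clustering, numbered 2779 and 1579 and included cells outside the class. They gave smaller differences than the class for every member but Prf1. There Gzma was still higher (3.13), Gzmb was at 1.29 and Ifng at 0.65, Nkg7 (0.10), Ccl5 (0.01) and Klrd1 (0.11) were near 0, and Prf1 was lower (-1.13).

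**Figure D2:**
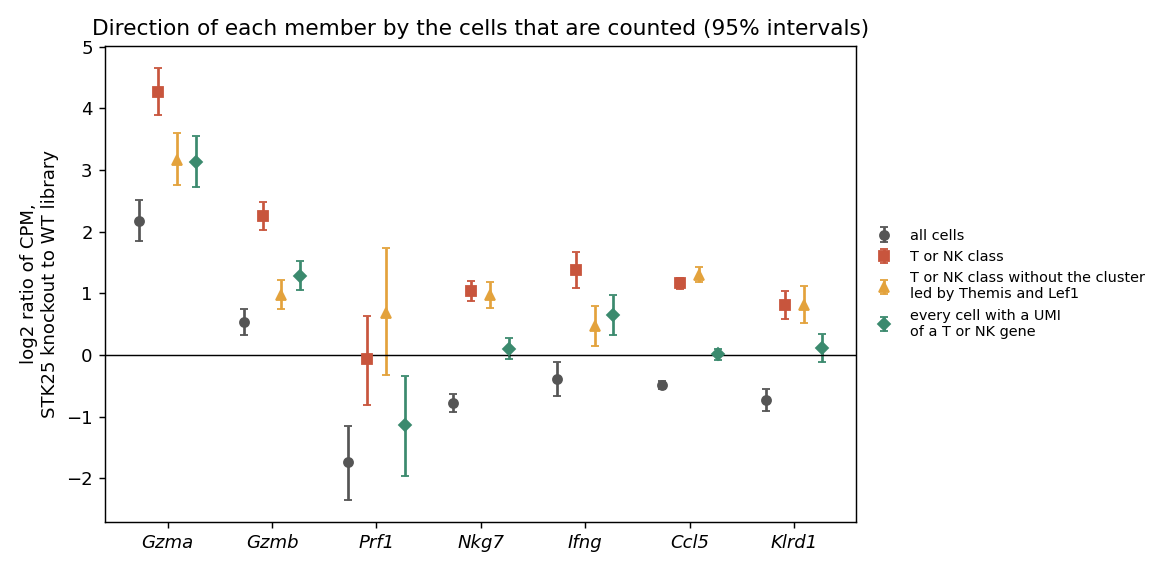
Log2 ratio of the knockout-labelled to the WT-labelled level of each member over all cells, in the T or NK class, in that class without the cluster led by Themis and Lef1, and in cells with a UMI of a T or NK gene, with exact conditional binomial intervals. Nkg7 lies at -0.78 over all cells and at 1.04 in the class, while Gzma lies above 2 in every setting drawn.

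A few cells carried much of the granzyme signal. In the T or NK class the 5 cells with the most Gzma held 67.2% and 41.9% of its UMIs, with up to 17 and 63 in a single cell. For Gzmb they held 39.6% and 26.04%, and for Ifng 39.4% and 28.6%. Nkg7 (13.0% and 12.3%), Klrd1 (11.2% and 11.3%) and Ccl5 (13.2% and 16.6%) were spread over more cells. Leaving out those 5 cells in each library gave log2 ratios of 5.10 for Gzma, 2.54 for Gzmb and 1.62 for Ifng. The others were at -0.38 for Prf1, 1.05 for Nkg7, 1.11 for Ccl5 and 0.81 for Klrd1. For Gzma, Gzmb and Ifng those cells held a larger share of the WT-labelled UMIs than of the knockout-labelled ones. These 3 ratios were thus bound to rise. Their unchanged direction is therefore no check on them. The counting intervals above take UMIs as independent and are too narrow where single cells hold many.

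Subclusters of the class showed that the members did not move as a block. Subcluster 6, with 147 and 116 cells, was led by Xcl1, Cd7, Ly6c2, Ccl5 and Nkg7, and markers of CD8 T cells were detected, but its leading genes held more NK cell than CD8 T cell markers, so it was left without a cell type name. In that subcluster Gzma was at 67.5 and 953 CPM (log2 ratio 3.82, interval 3.19 to 4.52), in 2.04% and 19.0% of cells. Gzmb was at 79.8 and 304 CPM (log2 ratio 1.93, interval 1.29 to 2.62). Ccl5 differed little, at 3749 and 3705 CPM, with a log2 ratio of -0.02 (-0.14 to 0.10). Nkg7 was moderately higher (739 and 1131 CPM, in 57.8% and 80.2% of cells), as was Klrd1 (353 and 529 CPM). Here Ifng was lower, at 169 and 59.6 CPM (log2 ratio -1.503, interval -2.36 to -0.71), although the shares of positive cells were 12.2% and 11.2% and 1 cell of the library labelled WT held 20 of its 55 UMIs. Prf1 had 14 and 16 UMIs, a log2 ratio of 0.30 (-0.83 to 1.45).

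Much of the interferon gamma signal lay in a single subcluster. Subcluster 3, CD4 T-like and led by Tnfsf11, Tnfsf8, Krt83, Ifng and Cd40lg, had 318 and 325 cells and held 39.4% and 57.5% of all Ifng UMIs of each library. Its Ifng level was 107 and 202 CPM (log2 ratio 0.91, interval 0.50 to 1.33), in 6.92% and 14.5% of its cells (4.64% and 8.83% after thinning). Gzmb was at 23.9 and 58.4 CPM there and Prf1 had 1 UMI in each library. The 83 Gzma UMIs of this subcluster in the library labelled STK25 knockout came from 6 cells.

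Granzyme B was also found in cells with no interferon gamma UMI. Subcluster 5, regulatory T-like and led by Penk, Tff1, Tnfrsf4, Klrg1 and Foxp3, had Gzmb at 161 and 564 CPM (log2 ratio 1.81, interval 1.35 to 2.28), in 12.8% and 29.5% of 117 and 146 cells. No Ifng UMI was found in those cells, which allows a share of cells with a UMI of up to 2.56% and 2.05%, and Klrd1 had 0 and 4 UMIs. The other regulatory T-like subcluster, led by Ttn, Itgb8, Frmd5, Ikzf2 and Myo3b, had Gzmb at 26.6 and 70.2 CPM in 666 and 169 cells. Cells of the T or NK class with a UMI of Foxp3, the regulatory T cell factor, gave the same order without the subclusters. Gzmb was in 6.29% (2.92 to 11.6) of 143 and 35.3% (26.1 to 45.4) of 102 such cells. With Foxp3 read at full depth, thinning gave 5.43% and 25.3%.

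In the IL-17-producing-like subcluster, led by Trdv4, Il17a, Cd163l1, Zbtb16 and Trdc, Gzmb was lower by level and higher by share. Its level was 490 and 278 CPM (log2 ratio -0.82, interval -1.24 to -0.40), but 1 cell of the library labelled WT held 54 of 94 UMIs, and 14 of 81 and 38 of 152 cells were positive. Ifng had 0 and 1 UMIs there, and Nkg7 fewer UMIs in the library labelled STK25 knockout, 23 and 8. Subcluster 8, unnamed and led by Dscam, Clnk, Zmat4, Lrmda and Chn2, had Gzma at 127 and 670 CPM (log2 ratio 2.40, interval 1.71 to 3.16). The naive T-like subcluster, led by Rapgef4, Fgf13, Lef1, Auts2 and Cmah, held 1103 cells in the library labelled WT and only 22 in the other, so no comparison was made. In its WT-labelled cells Gzma (3.32 CPM) and Gzmb (1.11 CPM) were rare and Ccl5 was at 79.0 CPM. A further subcluster led by neutrophil genes (S100a8, Retnlg, S100a9) held 39 and 360 cells. Leaving it out gave a summed log2 ratio of 1.44 in place of 1.39.

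**Figure D3:**
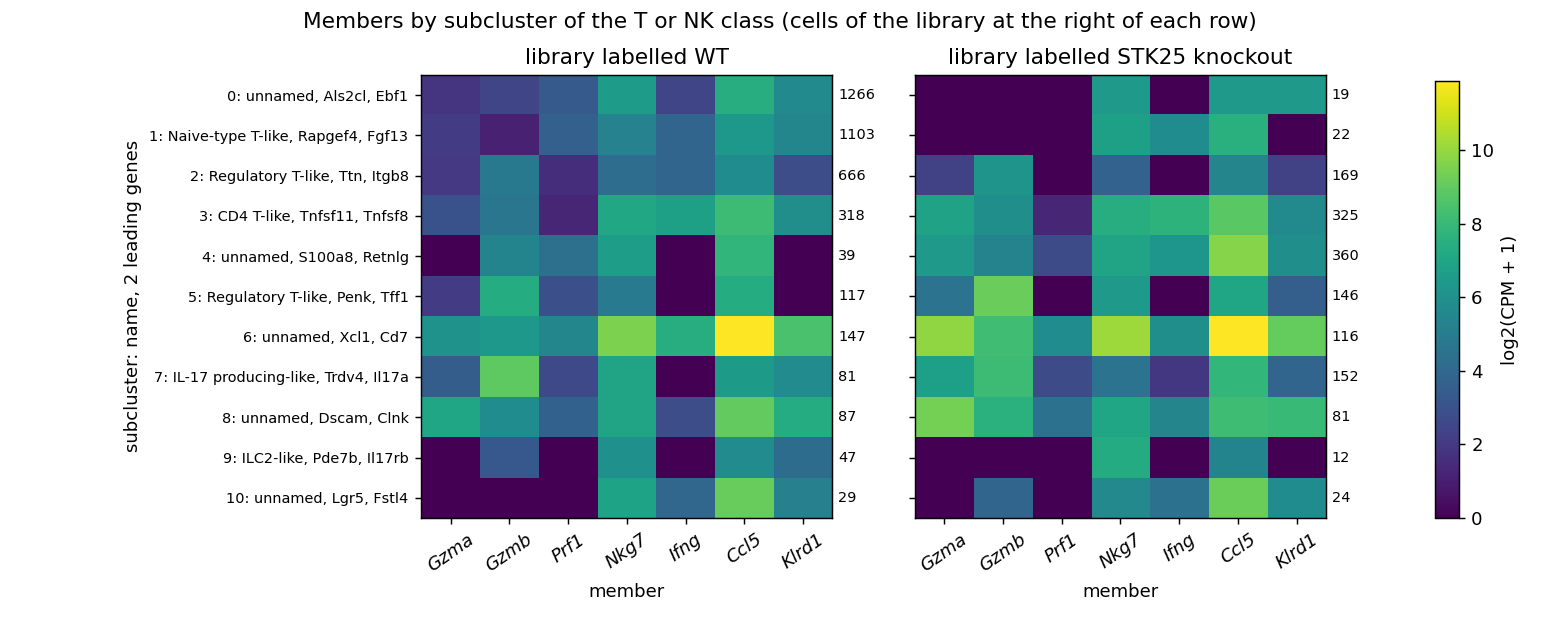
Level of each member (log2(CPM + 1), colour scale) in the subclusters of the T or NK class for each library. The subcluster led by Xcl1 and Cd7 has Ccl5 at 3749 and 3705 CPM, and the CD4 T-like subcluster has Ifng at 107 and 202 CPM.

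Co-detection with the anchor genes was read within the T or NK class. Cells with a Cd8a UMI numbered 298 and 71, with median depths of 1888 and 2608 UMIs. Any member was found in 47.3% and 85.9% of them (34.8% and 79.4% after thinning). Here and for Trdc below, thinning was applied to the members and the anchor UMI was read at full depth. Nkg7 was found in 28.2% (23.2 to 33.7) and 69.0% (56.9 to 79.5), Ccl5 in 19.1% and 63.4% and Klrd1 in 20.8% and 52.1%. The granzymes were in fewer, with Gzma in 3.02% (1.39 to 5.66) and 18.3% (10.1 to 29.3) and Gzmb in 2.68% and 21.1%. Ifng was in 4.03% and 21.1% and Prf1 in 3.02% and 2.82%. Every member but Prf1 was therefore found in a larger share of the Cd8a cells of the library labelled STK25 knockout.

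Those Cd8a cells came from different clusters. The cluster led by Themis and Lef1 held 265 of the 298 and 6 of the 71. In the 33 and 65 Cd8a cells outside it, with median depths of 2627 and 2677, the granzyme shares were close, at 18.2% (6.98 to 35.5) and 20.0% (11.1 to 31.8) for Gzma and 21.2% and 23.1% for Gzmb. Nkg7 was in 39.4% (22.9 to 57.9) and 70.8% (58.2 to 81.4) of them, and its level was 1002 and 961 CPM. For Ccl5 the shares were 36.4% and 64.6%, for Klrd1 30.3% and 56.9%, for Ifng 9.09% and 23.1%, and for any member 57.6% (39.2 to 74.5) and 87.7% (77.2 to 94.5). The intervals of the Gzma, Gzmb and Ifng shares overlapped widely, so no difference in those was detectable among these few cells.

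Trdc cells of the class numbered 55 and 103, with median depths of 1935 and 2564. Gzmb was in 10.9% (4.11 to 22.2) and 32.0% (23.2 to 42.0) of them, and in 5.88% and 17.3% after thinning. Gzma was in 1 and 10 cells and Prf1 in 1 and 1. The other members had no such gap, with Nkg7 in 14.5% and 9.71%, Ccl5 in 25.5% and 23.3%, Klrd1 in 16.4% and 14.6% and Ifng in 5.45% and 1.94%. Any member was in 40.0% and 53.4% of Trdc cells, and after thinning in 31.4% and 34.7%. With Trdc thinned too, over all cells, the order was the other one, at 34.1% and 28.3%. Ncr1 cells were only 14 and 15. Nkg7 was in 42.9% and 73.3% of them, Klrd1 in 35.7% and 66.7%, Ccl5 in 42.9% and 46.7% and Gzmb in 0 and 3 cells.

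In most member-positive cells of the class none of the 3 anchors had a UMI. This held for 81.0% and 77.1% of cells with any member. By member the share ran from 61.5% (Gzma) to 83.1% (Ccl5) in the library labelled WT. In the library labelled STK25 knockout it ran from 59.7% (Klrd1) to 80.9% (Ifng). In sparse counts a missing anchor UMI does not show that the cell lacks the gene. Among the 3537 and 1241 cells without an anchor UMI, any member was in 20.3% and 33.9% (17.96% and 26.4% after thinning), Gzmb in 1.58% and 9.27% and Ifng in 1.70% and 6.12%. Of Gzmb cells, 8.70% and 20.1% held Trdc and 11.6% and 9.15% held Cd8a. Of Nkg7 cells, 25.4% and 22.3% held Cd8a, and of Klrd1 cells 25.5% and 24.8%.

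**Figure D4:**
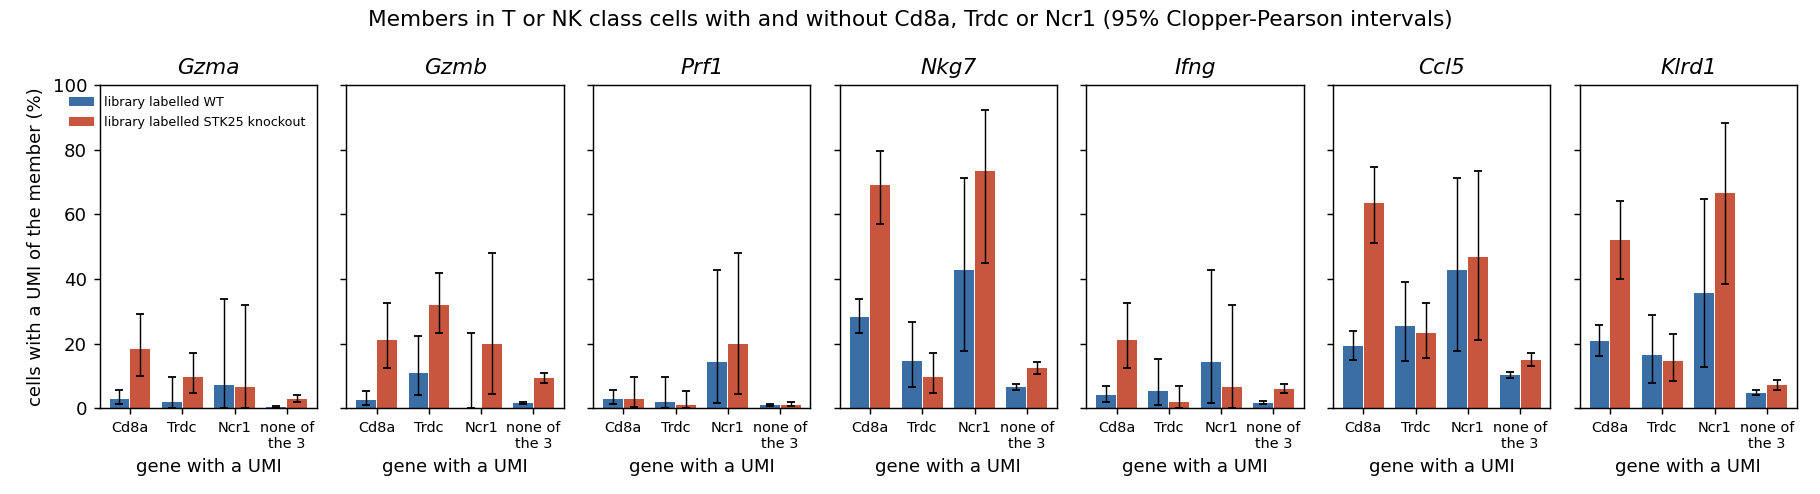
Share of cells of the T or NK class with a UMI of each member (percent of cells) among cells with Cd8a, Trdc or Ncr1 and among cells with none of them, for each library, with Clopper-Pearson intervals. Nkg7 is in 28.2% and 69.0% of Cd8a cells and in 14.5% and 9.71% of Trdc cells.

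Several pairs of members were found in larger shares of the cells of the library labelled STK25 knockout. Of T or NK cells with Nkg7 or Ccl5, both were found in 127 of 642 (19.8%) and 125 of 352 (35.5%). The shares were 17.4% and 28.6% for Nkg7 with Klrd1 and 11.8% and 23.8% for Ccl5 with Klrd1. Gzma and Gzmb were together in 5 of 90 and 27 of 195 cells with either, 5.56% and 13.8%. Prf1 with Ifng showed no such gap, at 4.17% and 3.64%. At least 3 members were found in 69 of 3900 cells (1.77%) and in 112 of 1426 cells (7.85%). Deeper cells show more pairs, and these shares were not thinned. The cluster led by Themis and Lef1, with 2677 and 84 cells, is within these counts, and its part was not tested.

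Outside T and NK cells the granzymes were rare but not absent. Over both libraries Gzma was at 10.4 CPM in an unnamed cluster led by Zg16 and 7.80 CPM in a neutrophil cluster led by Acod1. The T or NK cluster led by Themis had 9.45 CPM and the one led by Il17a 111.7 CPM. Epithelial cells, which should lack granzymes, had median depths of 3984 and 4560. A Gzma UMI was in 0.451% and 0.731% of 2663 and 4791 of them, and a Gzmb UMI in 0.150% and 0.772%. B cells had Gzma in 0.0612% and 0.915% and Nkg7 in 1.16% and 0.305%, at median depths of 944 and 1227.5. The 0.915% was above the 0.667% of T or NK cells of the library labelled WT, where 21 of 26 Gzma cells held 1 UMI. After thinning, which sets the depths equal, Gzma was in 0.0808% and 0.129% of epithelial cells against 0.569% and 3.49% of T or NK cells. Prf1 had a UMI in 4 of 2663 and in 0 of 4791 epithelial cells, the latter allowing a share of up to 0.0626%. The T or NK class held 73.6% and 82.9% of all Gzma UMIs, 90.4% and 78.7% of those of Gzmb and 93.3% and 84.5% of those of Ifng.

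Ccl5 and Klrd1 had further sources. The class held only 61.7% and 51.1% of Ccl5 UMIs and 69.0% and 52.7% of Klrd1 UMIs. Dendritic cells (199 and 140) had Ccl5 at 848 and 247 CPM (log2 ratio -1.78, interval -2.01 to -1.55), in 25.1% and 22.9% of cells, and 1 cell held 238 of the 739 UMIs of the library labelled WT. The same dendritic cells had Klrd1 at 75.8 and 178 CPM (log2 ratio 1.23, interval 0.80 to 1.67), in 13.6% and 35.7% of cells, or 5.32% and 12.3% after thinning. Macrophages or monocytes (311 and 1118) had Ccl5 at 40.0 and 125 CPM (log2 ratio 1.65, interval 1.17 to 2.16). In endothelial cells Ccl5 was at 30.9 and 195 CPM, but 1 cell held 271 of the 475 UMIs of the library labelled STK25 knockout and the shares of positive cells were 5.13% and 4.93%.

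Other genes of the pathway, in lists drawn up with earlier results of these data known, were counted in the T or NK class at 20 UMIs or more, where 3.56% of all genes were past 1 and 5.04% past -1. The subcluster led by neutrophil genes, with 39 and 360 cells, was kept in the class here. Its part in the levels and counts of these lists was not tested. Of the other granzymes and granule proteins, 3 of 10 were past a log2 ratio of 1 (1 CPM added) and 1 past -1, with a median of 0.87. Gzmc, a further granzyme, was at 6.75 and 68.2 CPM, Srgn, the proteoglycan that packs the granule, at 679 and 1947 CPM, and Cst7, a protease inhibitor, at 25.8 and 64.4 CPM. For Gzmc, 1 cell held 24 of 43 UMIs in the library labelled WT and 1 cell 110 of 197 in the other. The gene past -1, Gzmf, had 25 and 1 UMIs, 24 of them in 1 cell. The release machinery had 0 of 8 past 1, 0 past -1 and a median of 0.30, which is near the share of all genes. Lyst, which shapes lysosome-related granules, was at 134 and 87.6 CPM, and Coro1a, an actin regulator, at 347 and 514 CPM.

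Death ligands had 2 of 4 past 1, Fasl at 9.74 and 22.5 CPM and Tnf at 27.5 and 66.5 CPM. Genes that induce interferon gamma had 1 of 8 past 1, Il12rb1, a chain of the IL-12 receptor, at 8.01 and 21.5 CPM, while Stat4, which acts below it, was at 329 and 350 CPM. The receptor of interferon gamma and its targets had 0 of 15 past 1 either way and a median of 0.03, with the receptor chain Ifngr1 at 327 and 562.5 CPM and the kinase Jak1 at 716 and 373 CPM. Receptors of Ccl5 and its kindred chemokines had 3 of 5 past 1, with Ccl3 at 11.6 and 107 CPM, Ccl4 at 36.0 and 354 CPM and Xcl1 at 42.9 and 209.8 CPM. Partners and ligands of Klrd1 had 4 of 9 past 1, among them Klrc1 (NKG2A, its inhibitory partner), with a log2 ratio of 1.42, and the signalling adaptor Tyrobp, with 1.73, while its ligand H2-T23 (Qa-1) was at 0.46. These 7 lists together had 13 of 59 genes past 1 and 1 past -1, beside the 3.56% and 5.04% of all genes. The subcluster led by neutrophil genes is within these counts. Without the cluster led by Themis and Lef1 the counts past 1 were 2 of 9, 0 of 8, 0 of 4, 0 of 8, 0 of 14, 3 of 5 and 2 of 9, in the same order of lists, beside 2.84% of all genes.

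Over all cells the same lists looked different. Genes that induce interferon gamma had 0 of 10 past 1 and 3 past -1, with a median of -0.78, beside 1.62% and 2.85% of all genes. The 3 were Tbx21, the T-bet factor, at 7.03 and 2.51 CPM, Stat4 at 78.0 and 30.9 CPM and Il18r1, a chain of the IL-18 receptor, at 27.8 and 10.9 CPM. Past 1 over all cells were Srgn (271 and 740 CPM), Ccl3 (16.0 and 107 CPM), Ccl4 (51.1 and 190.2 CPM), Ccr1, a receptor of Ccl5 (8.83 and 28.9 CPM), and Tyrobp (72.9 and 347 CPM), and no gene of the other lists was past 1 or -1. Myeloid cells also express several of these 5 genes.

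Over the 26 clusters of cells, each taken once over both libraries, 14596 genes were set beside each member by Pearson's r of log2(CPM + 1). Clusters share their libraries and differ in depth, so these values only describe likeness. Only 2 of the clusters form the T or NK class, so likeness cannot separate kinds of T or NK cells. Gzma was most like Cd160 (0.86), Sytl3 (0.85) and Lime1 (0.84), and Gzmb most like Ccr4 (0.83), Il23r (0.82) and Tcrg-C1 (0.82). For Prf1 they were Sh2d1a (0.90), Pglyrp2 (0.90) and Trbv13-2 (0.89), and for Ifng Trbv20 (0.97), Tcrg-C4 (0.93) and Tcrg-C2 (0.93). Nkg7 had Txk (0.86), Cd8a (0.85) and Ctsw (0.84), Klrd1 had Cd8a (0.93), Klrk1 (0.91) and Cxcr3 (0.88), and Ccl5 had Ubash3b (0.84), Cst7 (0.84) and Il12rb2 (0.80). Among themselves the members ranged from 0.38 for Gzma with Ccl5 to 0.85 for Ccl5 with Klrd1.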

How the data were processed

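Tumour cells of both genotypes were profiled on the 10x Genomics 3′ platform, 1 library per genotype, and the chemistry version is not settled by the labels. The deposited values are raw UMI counts, which the authors made with Cell Ranger 7.1.0 on mm10. Seurat is also named, and the study used it for its analysis after the counts.

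A cell was kept with 200 or more genes and no more than 25% mitochondrial UMIs. After scaling each cell to 10000, 2000 variable genes without the members, 30 principal components and 20 neighbours gave Leiden clusters (resolution 1, seed 0) with scanpy 1.11.5 in Python 3.11.15, with no batch correction. Clusters were named where at least 3 markers stood above the other clusters. Scrublet's own threshold called 0% of cells doublets, so the main values keep all cells, and an alternative removed the highest-scoring 1204 and 1542. Levels are summed UMIs per 1000000 with Poisson intervals, shares have Clopper-Pearson intervals, and ratios have exact conditional binomial intervals. With 1 library per genotype no test was run. Members, lists and named genes were chosen with earlier results of these data known. The named genes were the members, their anchors and, in each list, those past a log2 ratio of 1 and those with the most UMIs. Statistics were tested on simulated data. Sequences are from RefSeq.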

Additional observations from a re-analysis of the deposited data

Results flagged for a closer look

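Results were set apart here where a member was higher in the T or NK class and lower in another class, with both intervals clear of 0. None of these differences between classes was tested, since each class comes from 1 library per genotype. In B cells Nkg7 had 19 and 2 UMIs, a log2 ratio of -2.27, against 1.04 in T or NK cells. Ccl5 in B cells, with 90 and 24 UMIs, had a log2 ratio of -0.93 against 1.16. In dendritic cells Ccl5 had a log2 ratio of -1.78 against 1.16, with 68.2% of its UMIs in the library labelled WT in 5 cells. In neutrophils Klrd1 had 6 and 23 UMIs, a log2 ratio of -1.64 against 0.81. WT-labelled B cells and epithelial cells had a Nkg7 UMI in 1.16% and 1.20% of cells.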

How the results depend on the processing

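Summed over the 7 members, the log2 ratio over all cells was -0.36. It was -0.43 with a stricter filter on cells and 0.10 with a mean over cells, which reversed it, and the same mean gave 0.16 for Ifng and 0.017 for Ccl5. In the T or NK class the sum was 1.39, against 1.32 with the stricter filter, 0.32 in all cells with a UMI of a T or NK gene, 1.24 without the cluster led by Lef1 and Themis and 1.68 with a mean over cells. The cause of these shifts was not tested. The share of class cells with a member, 22.7% and 38.3%, was 19.9% and 30.3% after thinning and 8.28% and 20.8% when 2 UMIs were needed. Over all cells, any member was in 40.9% and 70.7% of Cd8a cells, 33.8% and 46.2% of Trdc cells and 10 of 20 and 16 of 25 Ncr1 cells. In the library labelled WT these became 26.9% (Cd8a) after thinning, which here covered the anchor gene as well. With 2 anchor UMIs they were 54.4% (Cd8a), 52.4% (Trdc) and 80.0% (Ncr1), and for T or NK cells 47.3% (Cd8a). The knockout-labelled values became 28.3% (Trdc) after thinning, below the 34.1% of WT-labelled Trdc cells, 97.7% (Cd8a) and 90.9% (Ncr1) with 2 anchor UMIs, and 85.9% (Cd8a) and 86.7% (Ncr1) for T or NK cells. The count of pathway genes past -1 was 1, and 0 with at least 100 UMIs. Across the settings 45 of these values were taken as the same, 20 as moved and 1 as reversed. The same means within the main interval or, for counts of pathway genes, within a fixed ratio of counts. For single members 85 stayed within their interval, 25 moved past it and 2 reversed. The settings that left out the cells with the most UMIs or the subcluster led by neutrophil genes were chosen after seeing the data. Leaving out a replicate was not possible with 1 library per genotype. No paired analysis was possible because there was 1 library per genotype. Counts of 3 or fewer UMIs, as for Prf1 in most subclusters, limit what can be read.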

Other observations

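Cells with a UMI of Il17a in the T or NK class (84 and 185) had Gzmb in 16.7% and 27.03% of cells and no Prf1 UMI. Cells with both Cd8a and Cd8b1 (90 and 23) had any member in 67.8% and 95.7% of cells, and Ifng in 5.56% and 43.5%. These shares are at full depth and rest on few cells. As given above, most WT-labelled Cd8a cells of the class, and few of the others, lay in the cluster led by Themis and Lef1. The part of that cluster here was not tested. Outside the T or NK class, 86 and 28 cells had a Cd8a UMI, and any member was found in 18.6% and 32.1% of those.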
